A study of Equus caballus with 2 samples.

Results

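Activator protein 1 (AP-1) and immediate early transcription factor genes were followed in equine endometrial fibroblasts that had been grown with or without transforming growth factor beta 1 (TGF-β1). The genes were chosen by symbol, as *FOS*, *FOSB*, *FOSL1*, *FOSL2*, *JUN*, *JUNB*, *JUND*, *EGR1*, *ATF3* and *NR4A3*. Of these 10, the deposited annotation of 21426 genes listed 9 under that symbol. *JUND* was not found by symbol and was not analysed here. All 9 averaged 10 or more transcript counts per 1000000 (CPM) over the 2 libraries, so none was lost to the filter on low values.

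The fibroblasts came from the endometrium of 4 mares in the mid-luteal phase, with healthy or only mildly fibrotic tissue, and were grown on collagen-coated hydrogels. For the last 24 h, serum was replaced by albumin in both groups. The control group received nothing further, and the other group received 10 ng/ml human recombinant TGF-β1. Cells were detached with trypsin and by scraping, pooled over the 4 mares within each group, and made into 1 droplet library per group. Transcripts were counted by unique molecular identifiers (UMIs), short tags that let amplified copies be counted as 1. There is no replicate library, cells were not assigned to mares here, and library and treatment cannot be told apart. Therefore the groups were compared without a test, and every interval below is an exact 95% Clopper-Pearson interval that covers counting error only.

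AP-1 is a dimer of basic leucine zipper (bZIP) proteins, in which a JUN protein pairs with a FOS protein, with another JUN or with an ATF protein. FOS proteins cannot pair with each other and need a JUN partner to bind DNA. Many of these genes are immediate early genes, which means that growth factors, serum, stretch or stress switch them on within minutes without new protein synthesis, and that their transcripts are short-lived. TGF-β1 signals through SMAD proteins, which can share promoters with AP-1, and AP-1 is known in fibroblasts for its part in wound healing, matrix turnover and fibrosis. A single collection after 24 h shows the level at that time and not the early response.

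The filters required 20000 UMIs and 3500 genes per cell and less than 4% mitochondrial transcripts (13 genes), and kept 3865 of 4384 barcodes in the control library and 4513 of 5124 in the TGF-β1 library. The kept cells held 210497250 and 219731144 UMIs, with medians of 50313 and 43142 UMIs per cell. The libraries shared 6 barcodes in all and 2 among kept cells. All 7 fibroblast markers were found, with summed levels of 21449 CPM in control and 21691 CPM in TGF-β1 cells, but the single markers differed in direction. *VIM* had 4399 and 2240 CPM (log2 ratio -0.97) and *PDGFRB* a log2 ratio of -0.71, while the collagen genes *COL1A1* (0.19), *COL1A2* (0.26) and *COL3A1* (0.33) were higher. The epithelial markers *EPCAM* and *CDH1* and the immune marker *PTPRC* had at most 6 UMIs in either library. The 5 epithelial markers found summed to 20.1 and 7.83 CPM, almost all of it *KRT7*, and the 4 endothelial markers to 0.784 and 0.410 CPM. Of the immune markers, *CD68* had 42.6 and 43.1 CPM, and *CD14*, with more than 1 row, was not summed. The 5 smooth muscle and pericyte markers summed to 940 and 1110 CPM, with *MCAM* lower (-1.72) and *CNN1* higher (1.23) after TGF-β1. Of the 10 cycling markers found, 9 were lower after TGF-β1, with a median log2 ratio of -0.68 and a sum of 83.3 CPM in control and 56.9 CPM in TGF-β1 cells. Without the cells that held at least 3 cycling markers, the ratios of *FOS* (-1.60), *JUN* (-1.10) and *EGR1* (-1.30) were close to those over all kept cells. Such cells were only 2.77% of the control and 2.44% of the TGF-β1 cells, so their removal could hardly change a ratio. The part of the marker differences in the results was not tested. As a check of the treatment, the known TGF-β1 response genes *SKIL* (log2 ratio 0.72), *CCN2* (0.85), *SMAD7* (1.05), *PMEPA1* (2.13) and *TGFBI* (2.32) were higher in the TGF-β1 library.

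All 9 genes had a lower level after TGF-β1 than in control cells, and each counting interval lay below 0. The interval of *FOSL1* came close to 0 (-0.12 to -0.01 on the log2 scale), and its ratio was not below 0 in the cells with more UMIs. The difference was largest for *FOS* (3.02-fold lower), *EGR1* (2.46-fold lower) and *JUN* (2.14-fold lower), and smallest for *FOSL1* (1.05-fold lower). These 3 of the 9 genes were more than 2-fold lower, while 2.13% of the 7658 genes that averaged 10 CPM or more were, and 4.43% were more than 2-fold apart in either direction. None of the 9 was more than 2-fold higher, against 2.3% of the 7658. The gene just inside that limit was *JUN*, and the gene just outside was *ATF3*, at 1.96-fold lower. On the log2 scale, with control as the base, the median ratio was -0.87 over the 9 genes and 0.0082 over the 7658 genes, of which 48.6% were lower. The ratios are of CPM values without a pseudocount. Summed over the 9 genes, the level was 1430 CPM in control and 727 CPM in TGF-β1 cells.

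**Figure D1:**
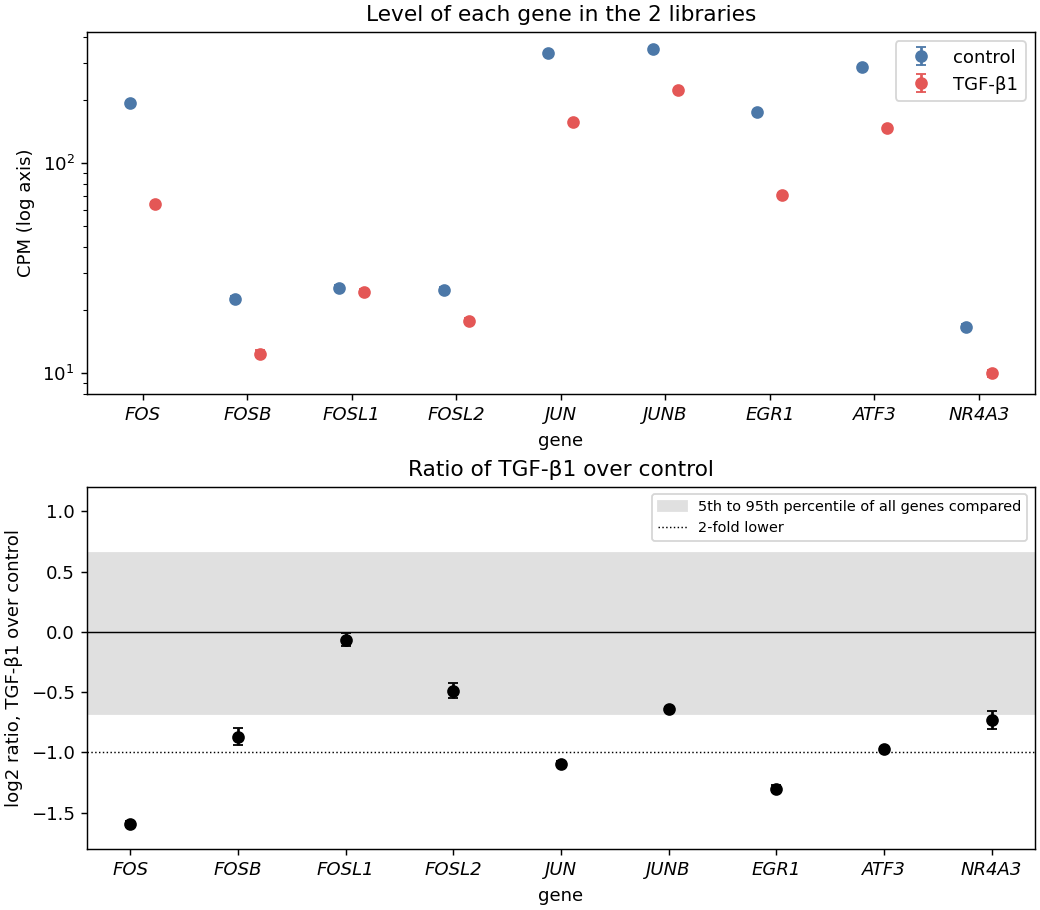
The upper panel plots the CPM of each of the 9 genes in the control (blue) and the TGF-β1 (red) library on a log axis, and the lower panel its log2 ratio, TGF-β1 over control. Bars are 95% counting intervals, the grey band runs from the 5th to the 95th percentile of the 7658 genes compared (-0.68 to 0.66), and *FOS*, *EGR1* and *JUN* lie below the dotted 2-fold line while *FOSL1* lies near 0.

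Among the FOS family, *FOS* (ENSECAG00000014260) encodes the classical short-lived partner of JUN. It had 194 CPM in the control library (40846 UMIs) and 64.3 CPM in the TGF-β1 library (14125 UMIs). The log2 ratio was -1.59 (-1.62 to -1.57), and 50 of the 7658 genes had a lower ratio. *FOSB* (ENSECAG00000018002), a close relative of *FOS*, had 22.7 CPM in control and 12.4 CPM in TGF-β1 cells, a log2 ratio of -0.87 (-0.94 to -0.80). *FOS* and *FOSB* both carry a transactivation domain, which the FRA proteins encoded by *FOSL1* and *FOSL2* lack.

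*FOSL1* (ENSECAG00000023092), which encodes FRA-1, had 25.6 CPM in control and 24.4 CPM in TGF-β1 cells from 5386 and 5368 UMIs. Its log2 ratio of -0.07 (-0.12 to -0.01) was the one nearest to 0 among the 9 genes, and 38.8% of the 7658 genes had a lower ratio. *FOSL2* (ENSECAG00000017657), which encodes FRA-2, had 25.02 and 17.8 CPM, a log2 ratio of -0.49 (-0.55 to -0.43). The 4 FOS family genes summed to 267 CPM in control and 119 CPM in TGF-β1 cells, a log2 ratio of -1.17 (-1.19 to -1.15). Since they did not differ by the same amount, the make-up of the family's transcripts differed between the libraries. *FOS* gave 72.6% (72.2% to 73.0%) of the family's UMIs in control and 54.0% (53.4% to 54.6%) in TGF-β1 cells. *FOSL1* gave 9.57% and 20.5%, and *FOSL2* gave 9.36% and 15.0%. These shares are of UMIs counted at the 3′ end and not of protein, and they are compared between libraries rather than between genes.

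Among the JUN family, *JUN* (ENSECAG00000024055) encodes the partner that can also pair with itself. It had 335 CPM in the control library (70489 UMIs) and 157 CPM in the TGF-β1 library (34464 UMIs), a log2 ratio of -1.09 (-1.11 to -1.08). *JUNB* (ENSECAG00000003816), whose product activates less strongly than JUN and can restrain it, had 349 and 224 CPM from 73380 and 49123 UMIs. Its difference was smaller, with 1.56-fold less in TGF-β1 cells. *JUN* therefore made up 49.0% (48.7% to 49.3%) of the UMIs of these 2 genes in control and 41.2% (40.9% to 41.6%) in TGF-β1 cells.

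Of the other 3 genes, *EGR1* (ENSECAG00000014338) encodes a zinc finger factor induced by serum and growth factors. It had 175 CPM in control and 70.9 CPM in TGF-β1 cells, a log2 ratio of -1.30 (-1.33 to -1.27). *ATF3* (ENSECAG00000011486), a stress-induced bZIP factor that often represses transcription, had 288 and 147 CPM, a log2 ratio of -0.97 (-0.99 to -0.95). *NR4A3* (ENSECAG00000011929), an orphan nuclear receptor of the immediate early class, had 16.6 and 9.98 CPM from 3492 and 2194 UMIs, a log2 ratio of -0.73 (-0.81 to -0.65). By counting error alone, *EGR1* differed more than *JUN* did, and *JUN* more than *ATF3*. In sums over cells, fewer cells with a transcript and fewer transcripts per cell give the same difference, so the cells were looked at next.

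To compare cells of unequal depth, 20000 UMIs were drawn at random from each kept cell. The share of cells with *FOS* was then 82.2% (80.9% to 83.4%) in control and 54.5% (53.0% to 55.9%) after TGF-β1, and 93.3% and 73.3% without this thinning. Among cells with *FOS*, the mean was 4.67 UMIs in control and 2.37 in TGF-β1 cells, so both the share of cells and the count within them were lower. Over control cells *FOS* ran from 0 to 56 UMIs with a median of 2, and over TGF-β1 cells from 0 to 23 with a median of 1. Cells with 10 or more *FOS* UMIs made up 9.44% of control and 0.908% of TGF-β1 cells.

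The share with *JUN* was 96.9% (96.4% to 97.5%) in control and 85.6% (84.6% to 86.6%) after TGF-β1, with medians of 6 and 2 UMIs and highest counts of 50 and 32. The cells of the libraries overlapped over most of the range of *JUN*, and most cells of both held the gene. For *EGR1* the shares were 90.4% (89.4% to 91.3%) and 65.5% (64.1% to 66.9%), with medians of 3 and 1 UMIs. For *ATF3* they were 90.7% and 79.7%, with medians of 4 and 2 UMIs, and for *JUNB* 97.98% and 94.1%, with medians of 6 and 4 UMIs. For these 3 genes, too, cells with 10 or more UMIs were fewer after TGF-β1, at 3.73% and 0.155% for *EGR1*, 18.8% and 4.39% for *ATF3* and 26.1% and 8.38% for *JUNB*.

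The other 4 genes had a median of 0 UMIs in both libraries. Cells with *FOSL1* made up 36.4% (34.8% to 37.9%) of the control and 35.1% (33.7% to 36.6%) of the TGF-β1 library, and these intervals overlapped. The shares were 37.4% and 28.8% for *FOSL2*, 27.4% and 17.6% for *FOSB*, and 21.4% and 14.6% for *NR4A3*. These shares are set by the depth at which cells are compared. Without thinning they were 63.1% and 59.7% for *FOSL1*, 67.2% and 53.0% for *FOSL2*, 46.3% and 33.0% for *FOSB* and 37.2% and 28.5% for *NR4A3*, and at 10000 UMIs per cell they were 21.2% and 20.3%, 21.3% and 16.1%, 16.5% and 9.66%, and 12.6% and 8.31% in the same order. For the more abundant genes the unthinned shares were 99.5% and 94.9% for *JUN*, 99.7% and 98.8% for *JUNB*, 97.6% and 82.9% for *EGR1* and 97.3% and 91.5% for *ATF3*. Each of the 9 genes had the lower share in TGF-β1 cells at all 3 depths. All cells were cultured fibroblasts, so there was no type without these genes in which free RNA could be measured, and a low share is not read as a count of expressing cells.

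**Figure D2:**
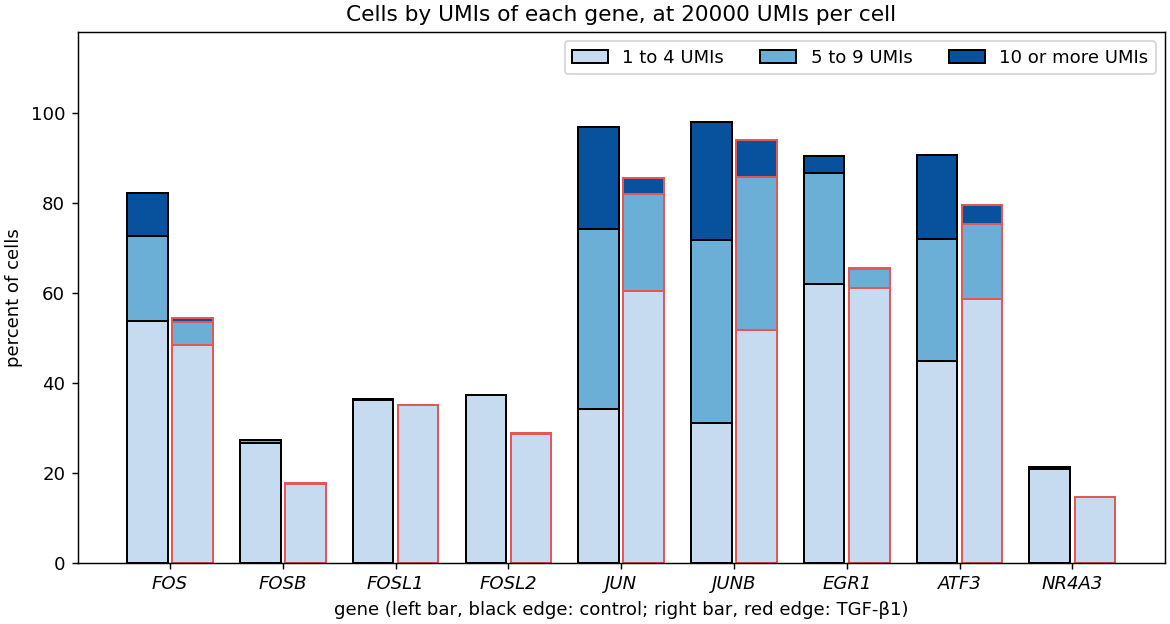
Stacked bars give the percent of cells with 1 to 4, 5 to 9 and 10 or more UMIs of each gene after thinning every cell to 20000 UMIs, for control (left bar, black edge) and TGF-β1 (right bar, red edge). The darkest part, cells with 10 or more UMIs, was 22.7% in control and 3.61% in TGF-β1 cells for *JUN* and 9.44% and 0.908% for *FOS*, while the *FOSL1* bars stood at 36.4% and 35.1%.

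Cells of 1 library varied more in these genes than in most. The spread beyond counting noise, given as the standard deviation left after subtracting the Poisson variance and divided by the mean, was 1.11 for *FOS* in control and 1.21 in TGF-β1 cells. It was above that of 93.6% and 96.5% of the 7658 genes, whose medians were 0.418 and 0.395. *NR4A3* (1.61 and 1.63) and *FOSB* (1.42 and 1.60) had the widest spread among the 9 genes, and *FOSL2* (0.556 and 0.554) had the narrowest. The tenth of cells with the most *FOS* held 37.7% of its UMIs in control and 44.9% in TGF-β1 cells, while the tenth with the most *JUN* held 24.6% and 29.7% of its UMIs. The spread is a description of these cells, and low counts make it imprecise for *FOSB* and *NR4A3*.

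A control cell had UMIs of a mean of 5.81 of the 9 genes (SD 1.22 over 3865 cells), and a TGF-β1 cell of 4.76 (SD 1.39 over 4513 cells), both at 20000 UMIs. Cells with 3 or fewer of the genes made up 3.21% of the control and 17.5% of the TGF-β1 library, and cells with 7 or more made up 27.6% and 9.90%. *FOS* and *JUN*, which encode the classical AP-1 pair, shared a cell in 80.1% (78.8% to 81.3%) of the control and 47.7% (46.2% to 49.2%) of the TGF-β1 cells. If the 2 genes were found independently of each other, 79.7% and 46.6% would be expected, so most of this co-detection follows from how often each gene is found. In control cells, where *JUN* was found in almost all, the share had little room above the expected value. It cannot show how independent the genes are. The odds ratio of *FOS* and *JUN* was 2.08 in control and 1.42 in TGF-β1 cells. *FOS* and *FOSB* shared 24.9% of the control and 11.9% of the TGF-β1 cells, 1.11 and 1.23 times the share expected from the single genes. This multiple has a lower ceiling where a gene is found in more cells, so the 2 values are not compared. The odds ratio of *FOS* and *FOSB* was 2.65 in control and 1.91 in TGF-β1 cells.

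Across cells, the correlations of log counts between pairs were weak. Over the 36 pairs, Pearson's r ran from -0.04 to 0.33 in control cells (n = 3865) with a median of 0.06, and from -0.04 to 0.27 in TGF-β1 cells (n = 4513) with a median of 0.05. The highest was that of *JUN* with *ATF3* (0.33 and 0.27), followed in control cells by *FOS* with *FOSB* (0.27 and 0.17) and *FOS* with *JUN* (0.22 and 0.17). *JUNB* had its highest value with *EGR1* (0.21 and 0.18), and had r of 0.02 and 0.01 with *FOS*. *FOSL1* and *FOSL2* had r of at most 0.13 with any of the other genes in either library. Cells share a library and a sparse count, and such weak values describe the pairs without making them a finding.

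**Figure D3:**
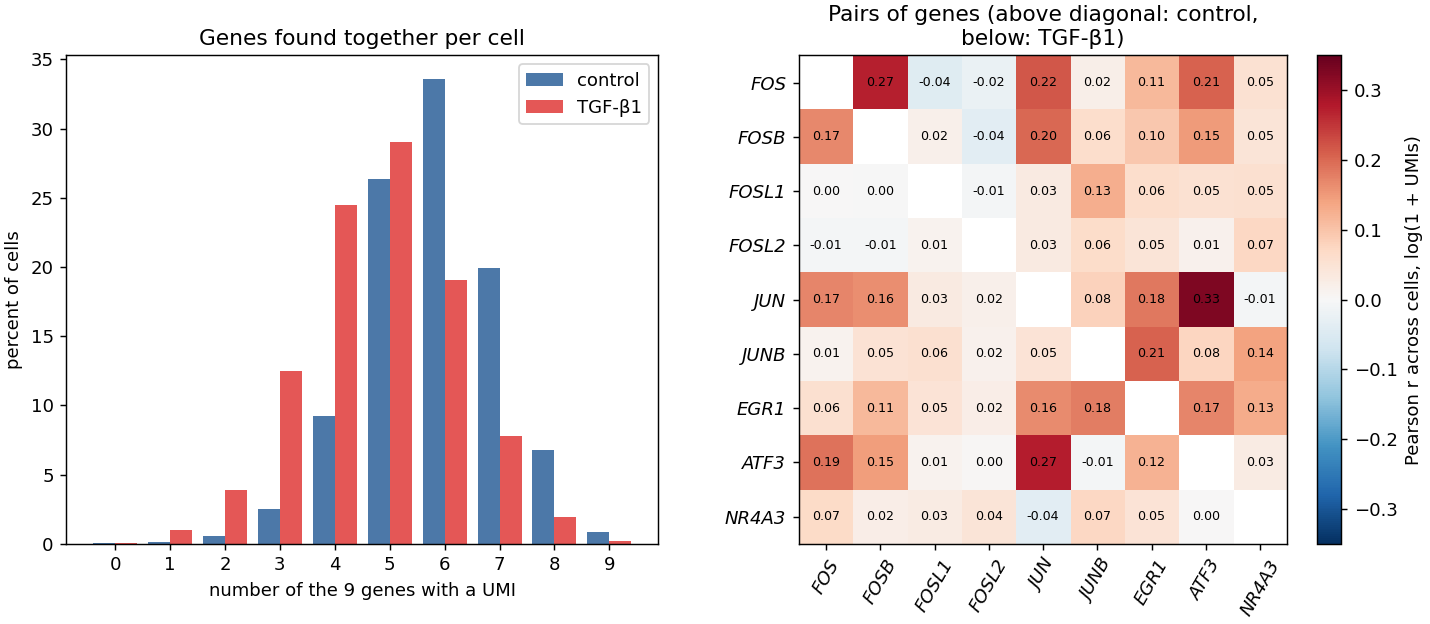
The left panel gives the percent of cells in which 0 to 9 of the genes had a UMI, and the right panel Pearson's r of log(1 + UMIs) for each pair, above the diagonal in control and below it in TGF-β1 cells. The most common number was 6 genes in control (33.6% of cells) and 5 in TGF-β1 cells (29.0%), and the highest r was that of *JUN* with *ATF3* in both libraries (0.33 and 0.27).

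The kept cells were clustered again with these 9 genes and the other immediate early genes left out of the variable genes, so that clusters did not rest on them. The 8 rebuilt clusters, numbered 0 to 7, held from 99 to 739 control and from 58 to 1044 TGF-β1 cells. Cluster 6 was cycling-like, with *CENPF*, *CDC20*, *CCNA2* and *ASPM* among its 10 leading genes and each of the 10 cycling markers found exceeded its level in the remaining cells by more than 2-fold. The others are called by number, and the numbers are not those of the study. Of the 72 ratios of 9 genes in 8 clusters, 70 were below 0.

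*FOS* was lower after TGF-β1 in all 8 clusters, with log2 ratios from -1.81 in cluster 1 to -1.18 in cluster 7, and it was more than 2-fold lower in all 8. *EGR1* was likewise more than 2-fold lower in all 8, from -1.77 in cluster 1 to -1.04 in cluster 2, and *JUN* in 6 of 8, from -1.39 in cluster 1 to -0.91 in cluster 0. Cluster 1, led by *SPP1*, *MATK*, *KRT7* and *KRT8* and with the mitochondrial *MT-CO3* also among its 10 leading genes, thus had the largest difference for *FOS*, *JUN* and *EGR1* and also for *JUNB* (-0.82). *ATF3* ran from -1.21 in cluster 5 to -0.74 in cluster 6, *FOSB* from -1.48 in cluster 7 to -0.42 in cluster 5, *JUNB* up to -0.47 in cluster 6, and *FOSL2* from -0.69 to -0.34. Differences between clusters were not tested, since each cluster holds 1 library per group.

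*FOSL1* had a counting interval that included 0 in 7 of 8 clusters, among them cluster 2 with a value above 0 (0.05), and a ratio of -0.29 (-0.44 to -0.15) in cluster 3. *NR4A3* was the other gene with a value above 0, of 0.16 (-0.06 to 0.38) in cluster 1, from 8.94 CPM in control and 9.97 CPM in TGF-β1 cells. Its largest difference was in cluster 4, with 32.1 CPM in control and 14.2 CPM in TGF-β1 cells, or -1.17 on the log2 scale. Cluster 4 was led by *EDIL3*, *EPHA6* and *ALDH2*, with *PTGS2* and *NR4A3* itself among its 10 leading genes although *NR4A3* was not used to build it. Control levels of *NR4A3* ran from 7.07 CPM in cluster 3 to 32.1 CPM in cluster 4, and those of *FOS* from 137 CPM in cluster 7 to 231 CPM in cluster 1. *ATF3*, *JUN*, *EGR1* and *FOSL2* had their highest control levels in cluster 7, the smallest one in control cells, at 504, 415, 226 and 38.3 CPM. Cluster 7 was led by *CA4*, *GDF15* and *KRT1*.

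**Figure D4:**
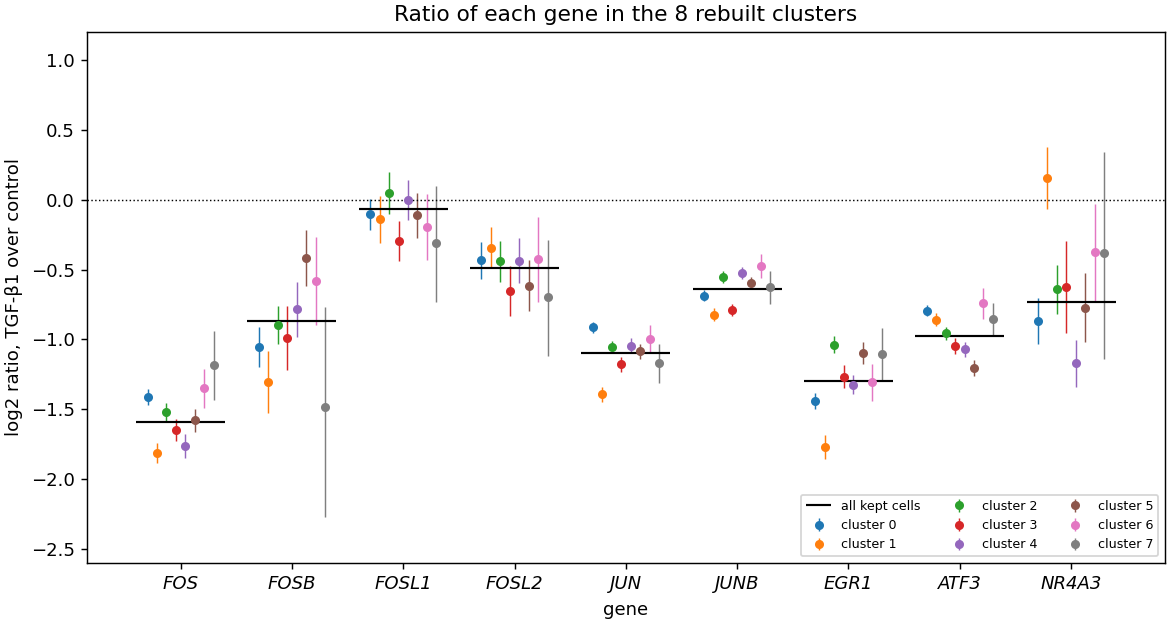
Points are log2 ratios, TGF-β1 over control, of each gene in each of the 8 rebuilt clusters, bars are 95% counting intervals, and the black line is the value over all kept cells. The points of *FOS* and *EGR1* lie below -1 in all 8 clusters, those of *FOSL1* lie around 0, and 1 point of *NR4A3* lies above 0.

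Depth and mitochondrial share differed between the libraries, with median mitochondrial shares of 1.47% in control and 1.21% in TGF-β1 cells. Within quartiles of UMIs per cell with common limits, *FOS* had log2 ratios from -1.74 to -1.41, *JUN* from -1.18 to -1.06, *EGR1* from -1.44 to -1.23 and *ATF3* from -1.01 to -0.88. Within quartiles of the mitochondrial share, *FOS* ran from -1.88 to -1.61 and *JUN* from -1.31 to -1.05. *FOSL1* had ratios of -0.33 and -0.16 in the quartiles of fewer UMIs and of 0.0452 (-0.07 to 0.16) and 0.0306 (-0.06 to 0.12) in the quartiles of more UMIs, where both intervals included 0. *NR4A3* ran from -1.14 to -0.23 over quartiles of the mitochondrial share and stayed below 0.

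Detaching and handling cells is known to raise both immediate early and heat shock transcripts. Of the 14 heat shock genes listed, 9 were found, 4 were higher and 5 lower after TGF-β1, and their median log2 ratio was -0.03. The extremes were *HSPA1A* (-0.45) and *HSPH1* (0.37), followed by *HSPB1* (0.33). Their mean log count per cell had r of 0.04 in control and 0.08 in TGF-β1 cells with that of the 9 genes. The mitochondrial share of a cell had r of -0.15 and -0.17 with the mean of the 9 genes, and the log UMIs of a cell 0.02 and 0.06. The part of cell handling or cell quality in the difference was not tested.

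Levels were also compared within a library, between cells with and without a UMI of *AREG*, *IGFBP3* or *KRT8* or with and without cycling markers. The intervals leave out the spread from cell to cell, which exceeded counting noise for the 9 genes, and are therefore too narrow. An interval that ends close to 0 does not settle a direction. Of the TGF-β1 cells, the 1031 with *AREG*, an EGF family ligand, had 62.4 CPM of *FOS* against 65.2 CPM in the other 3482. They had 56.5 against 75.2 CPM of *EGR1*, and the log2 differences of the 9 genes ran from -0.41 to -0.05. The intervals of *FOS* (-0.15 to 0.03), *FOSL1* (-0.20 to 0.10) and *NR4A3* (-0.30 to 0.18) included 0. *NR4A3* had 7.06 CPM in the 170 control cells with *AREG* and 16.7 CPM in the others, but 9.12 and 9.49 CPM in the TGF-β1 library. The 215 control cells with *IGFBP3* had 155 CPM of *FOS* against 194 CPM in the others, a log2 difference of -0.32 (-0.43 to -0.21), and the 1788 such cells after TGF-β1 had 67.2 against 62.8 CPM, a difference of 0.10 (0.02 to 0.17). The 986 control cells with *KRT8* had 221 CPM of *FOS* against 182 CPM, a log2 difference of 0.28 (0.23 to 0.34), and the 159 such cells after TGF-β1 had 86.2 against 63.7 CPM. In the same control cells *ATF3* (-0.10, -0.15 to -0.06) and *JUNB* (-0.06, -0.10 to -0.02) were lower, while the intervals of *JUN* and *EGR1* included 0. In the TGF-β1 library *ATF3* was instead higher in the cells with *KRT8*, at 178 against 141 CPM (0.33, 0.21 to 0.45), *EGR1* was lower (-0.21, -0.42 to -0.0039) and the intervals of *JUNB* and *JUN* included 0. Cells with at least 3 cycling markers, 107 in control and 110 in the TGF-β1 library, had less *ATF3* than the others, by log2 differences of -0.78 (-0.93 to -0.62) and -0.52 (-0.72 to -0.33). *JUN* was also lower in these cells of both libraries, by -0.46 (-0.58 to -0.33) in control and -0.30 (-0.47 to -0.13) after TGF-β1. Not all of the other genes were lower in these cells. *FOS* differed by -0.39 in control and 0.08 (-0.16 to 0.32) in the TGF-β1 library, and in the TGF-β1 library *NR4A3* was higher in these cells by 0.65 (0.09 to 1.16) and *FOSL1* by 0.44 (0.07 to 0.78).

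The genes around AP-1 did not share 1 direction. Of 35 other immediate early genes, 34 were found and 31 averaged 1 CPM or more, of which 22 were lower after TGF-β1 and 9 higher, with a median log2 ratio of -0.41. More than 2-fold lower were 6 of the 31, while 3.46% of the 12116 genes averaging 1 CPM or more were. None of the 31 was more than 2-fold higher, against 3.45% of the 12116. At 10 CPM or more, the largest differences were those of *KLF2* (164 to 50.3 CPM, log2 ratio -1.70), *BTG2* (41.0 to 14.9 CPM, -1.46) and *KLF4* (110 to 42.2 CPM, -1.38). *EGR3*, a relative of *EGR1* that averaged under 1 CPM and is outside these counts, had 286 UMIs in control and 40 in the TGF-β1 library (-2.90, -3.42 to -2.42), and was named after its values were seen. *KLF2* and *KLF4* encode zinc finger factors, and *BTG2* encodes an antiproliferative factor. All of the 9 higher genes had counting intervals above 0, and all of the 22 lower genes had intervals below 0.

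The other bZIP genes, which encode possible partners, split evenly by direction. Of 20 listed, 14 were found with at least 1 CPM, 7 of them higher and 7 lower, with a median log2 ratio of -0.04. More than 2-fold lower were 2 of the 14, against 3.46% of the 12116 genes averaging 1 CPM or more. None of the 14 was more than 2-fold higher, against 3.45% of the 12116. Among those at 10 CPM or more, *ATF5* was the furthest from 0, with 323 CPM in control and 149 CPM in TGF-β1 cells (-1.12), while *MAF* (0.65) and *ATF7* (0.33) were higher. The upstream kinases and serum response factor (SRF) cofactors, which carry signals to the *FOS* and *EGR1* promoters, had a median of -0.02 over 26 genes, with 13 higher and 13 lower. Among those at 10 CPM or more, the ETS factor gene *ELK3* (114 to 203 CPM, 0.84) and the kinase genes *MAP2K1* (44.6 to 71.6 CPM, 0.68) and *MAP2K3* (53.8 to 80.8 CPM, 0.59) differed most. Of the 6 repressor and turnover genes, 4 were higher and 2 lower, with *SKIL* (0.72, also a treatment check gene), *NAB2* (-0.47), which encodes a corepressor of EGR1, and *COP1* (0.37), which encodes a ubiquitin ligase for JUN, furthest from 0.

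Of 22 genes known as AP-1 targets, 18 were found with at least 1 CPM, 14 of them higher after TGF-β1 (13 with intervals above 0) and 4 lower (*HMOX1*, *CXCL8*, *PLAU* and *TGFB1*, from -0.60 to -0.08 and all with intervals below 0), with a median log2 ratio of 1.11. *IL6*, under 1 CPM and so outside these counts, had 63 UMIs in control and 2 in the TGF-β1 library. These 5 genes were named after their values were seen. More than 2-fold higher were 10 of the 18, while 3.45% of the 12116 genes averaging 1 CPM or more were. *IL11*, an IL-6 family cytokine, had 150 CPM in control and 1993 CPM in TGF-β1 cells (log2 ratio 3.73). The EGF family ligands *AREG* (7.16 to 70.1 CPM, 3.29) and *EREG* (77.4 to 282 CPM, 1.87) came next among those with at least 10 CPM. These genes answer to other factors as well as AP-1, and the list was written with earlier results of these data known, so it is no independent measure of AP-1 activity.

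**Figure D5:**
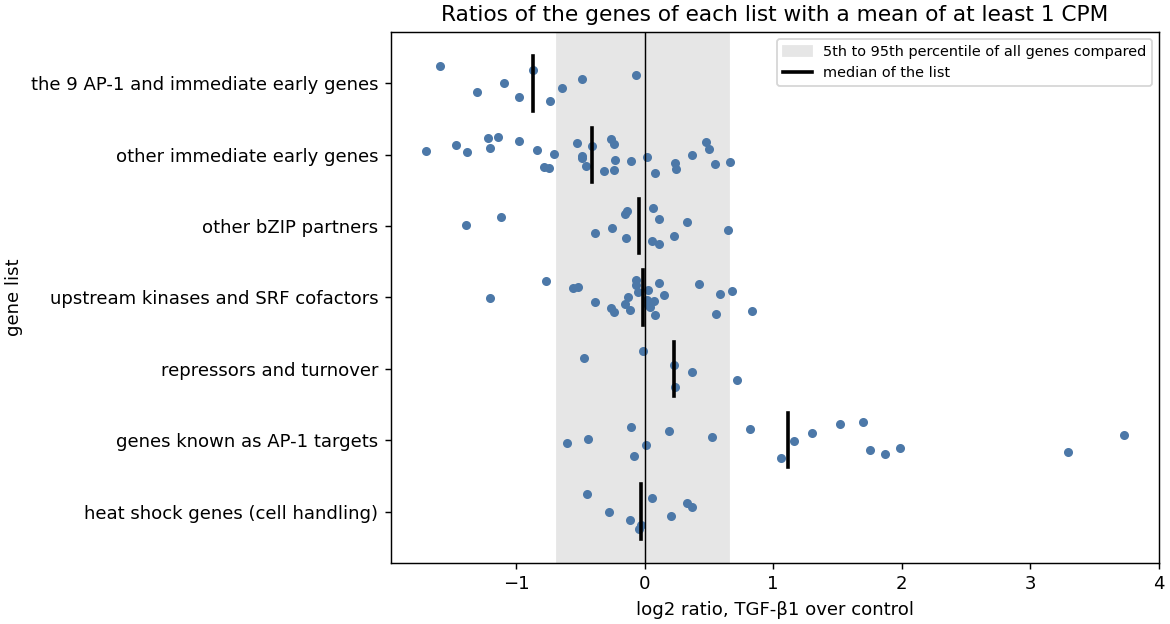
Each point is the log2 ratio, TGF-β1 over control, of 1 gene averaging 1 CPM or more. Rows are the gene lists, and black bars are the list medians. The grey band runs from the 5th to the 95th percentile (-0.68 to 0.66) of the 7658 genes averaging 10 CPM or more, a higher minimum than for the points. The medians ran from -0.87 for the 9 AP-1 and immediate early genes and -0.41 for the other immediate early genes to 1.11 for the genes known as AP-1 targets.

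Outside the set, the genes whose counts varied most like the 9 genes from cell to cell were ranked by the lower of the r values in the 2 libraries (n = 3865 and 4513 cells). For the mean log count of the 9 genes, these were *KLF6* (0.24 in control and 0.23 in TGF-β1 cells), *IQCN* (0.28 and 0.20), *DUSP1* (0.30 and 0.20), *NFATC2* (0.24 and 0.18), *FBLN1* (0.22 and 0.17), *BHLHE40* (0.16 and 0.18), *EMP1* (0.17 and 0.15), *KLF2* (0.15 and 0.15), *NFKB1* (0.18 and 0.14) and *CREB5* (0.15 and 0.14). *FOS* went most with *RFX2* (0.26 and 0.19), *CFAP210* (0.26 and 0.19) and *DUSP1* (0.25 and 0.17), and *FOSB* with *NFATC2* (0.33 and 0.16), *SIK3* (0.19 and 0.15) and *RFX2* (0.29 and 0.14). *JUN* and *ATF3* had *KLF6* and *IQCN* in common among their nearest 3, with *NFATC2* for *JUN* and *CREB5* for *ATF3*. *JUNB* went with *IER3* (0.22 and 0.29), *BHLHE40* (0.24 and 0.22) and *ID1* (0.23 and 0.20), and *FOSL1* with *IER3* (0.14 and 0.16), *LIF* (0.09 and 0.10) and *PTGS2* (0.10 and 0.09). *NR4A3* had its family member *NR4A2* (0.28 and 0.19) first, then *SIK1* (0.24 and 0.17) and *DISP1* (0.17 and 0.19). *EGR1* went with *ZSWIM6* (0.18 and 0.15), *RAI14* (0.14 and 0.14) and *COL3A1* (0.14 and 0.14), and *FOSL2* with *DISP1* (0.08 and 0.06) and *PDZD8* (0.06 and 0.05). All of these values are weak, and they describe shared variation between cells of the same libraries, depth having been made equal.

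The barcodes that did not pass the filters, 519 in control and 611 in the TGF-β1 library, had medians of 3728 and 6107 UMIs and mitochondrial shares of 3.23% and 10.2%. In them, *FOS* had 151 and 45.1 CPM, *JUN* 380 and 176 CPM and *EGR1* 188 and 64.6 CPM. The log2 ratios of *FOS* (-1.74), *JUN* (-1.11), *EGR1* (-1.54), *ATF3* (-1.05), *FOSB* (-1.31), *NR4A3* (-0.76) and *JUNB* (-0.64) were again below 0 with their intervals, while the intervals of *FOSL1* (0.16, -0.23 to 0.55) and *FOSL2* (0.04, -0.37 to 0.44) included 0.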

How the data were processed

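Endometrial fibroblasts of 4 mares were pooled into 1 library per group. The deposited counts are whole UMI numbers for each gene and barcode, for which the authors had aligned reads to EquCab3.0 with Cell Ranger and used the Ensembl annotation. The methods name version 7.1.0 and the file header 8.0.1. The cell filters and the genotype-based doublet removal of the study had not been applied. The filters were applied here. No doublets were removed, and cells above the 98th percentile of UMIs were left out as an alternative.

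UMIs were summed per library in Python 3.11.15 (numpy 2.4.6, scipy 1.17.1, pandas 2.3.3), scaled to CPM, and given as log2 ratios without a pseudocount. No ratio was given at 3 or fewer UMIs in both libraries. Cells were thinned to 20000 UMIs for shares, co-detection and correlations. Clusters were built in Seurat 5.3.0 under R 4.3.3 (2000 variable genes, 30 dimensions, canonical correlation integration, resolution 0.5). Figures were drawn in matplotlib 3.10.9. The genes named were the 9 genes, the 3 furthest from 0 of each list with at least 10 CPM, the treatment check genes, and the nearest 3 genes to each gene and 10 to their mean. Leading genes of clusters were named in addition. A few genes that met this rule are not reported here. Alternatives changed the cell filters, scaling, CPM minimum, fold limit, thinning and clustering. Genes and lists were chosen with earlier results of these data known. Sequences and genomic positions were not used here. With 1 library per group, no p-value is given.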

Additional observations from a re-analysis of the deposited data

How the results depend on the processing

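The count of 3 genes more than 2-fold lower became 7 at a 1.5-fold limit and 5 within the second quartile of the mitochondrial share, which was chosen after seeing the data, as were all quartiles. The count of all genes more than 2-fold apart, 339, became 970 at a 1.5-fold limit and 837 at a minimum mean of 1 CPM. The median of the other immediate early genes moved from -0.41 to -0.45 with the mean of per-cell CPM and to -0.43 at a minimum of 10 CPM, where that of the AP-1 targets moved from 1.11 to 0.82. The share of cluster ratios below 0 was 97.2%, 96.0% at resolution 0.8 (95 of 99, with *NR4A3* up to 0.54 and *FOSL1* up to 0.10), 98.1% at resolution 0.3, 98.4% with immediate early genes left among the variable genes, and 100% without integration, where 1 cluster held at least 50 cells of each library. Over the 8 other choices of cells and scaling, *FOS* stayed between -1.60 and -1.57, *ATF3* between -0.98 and -0.96 and *FOSL1* between -0.10 and -0.06. *FOSL1* was 0.0452 and 0.0306 in the upper quartiles of UMIs, and the median of the other bZIP genes was 0.0632 at a minimum of 10 CPM. The cause was not tested. Shares of cells with a UMI moved with the depth of thinning by over 1.5 times for *FOSL1*, *FOSL2*, *FOSB* and *NR4A3*. No paired analysis was possible because the cells of the pooled libraries were not assigned to mares here. Counting error is small at this depth for the abundant genes, and the spread between mares and cultures is not measured.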
